A study of Mus musculus with 6 samples.

Results

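Many of the circRNAs measured in the striatum of HuD KO mice are made from genes that carry signals inside neurons. A set of 137 such circRNAs from 86 host genes was examined here, of 14236 circRNA probes on the array, on which 3056 circRNAs had a host gene named in the tables used. They were chosen by the symbol of the host gene, which had to begin with that of a kinase, phosphatase, phosphodiesterase, adenylyl cyclase, phospholipase C or A-kinase anchor family (Pde, Ppp, Prk, Akap, Adcy, Camk, Map2k, Map3k, Map4k, Mapk, Mark, Cdk, Csnk, Pik3, Pip5k, Pip4k, Dgk, Plc, Stk, Tnik, Wnk, Rps6k, Dyrk, Hipk, Gsk3 or Cask). Because a symbol was used and not a function, a few hosts are no enzymes of these families, such as Cdk5rap1, which modifies transfer RNA. A circRNA also had to stand in the deposited tables of circRNAs higher or lower in HuD KO, or in the list of circRNAs that the study found bound by HuD. Of the 137, 79 circRNAs of 50 hosts stood in the table of higher circRNAs and 29 circRNAs of 29 hosts in the table of lower ones. A further criterion, binding by HuD, held for 41 circRNAs of 28 hosts, 12 of them also in the table of higher circRNAs and 0 in the table of lower ones.

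HuD is an RNA-binding protein of the ELAV family, made mainly in neurons from the gene Elavl4, which binds AU-rich and GU-rich stretches of RNA. A circRNA is a closed ring of RNA, made when a downstream splice site is joined backwards to an upstream one, and the array probes it at that back-splice junction. Striatal medium spiny neurons read dopamine and glutamate through second messengers. Cyclic AMP acts on protein kinase A and is removed by phosphodiesterases. Calcium acts on calmodulin-dependent kinases and on the phosphatase calcineurin, and diacylglycerol acts on protein kinase C. These pathways meet in the MAP kinase cascade and are reversed by protein phosphatases.

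The arrays compared 3 adult male HuD KO mice, which are Elavl4-/-, with 3 male WT littermates, all of the C57BL6 strain, with 1 array per mouse of RNase R-treated striatal RNA. The HuD-bound list came from other animals, mice that overexpress myc-tagged HuD from the Camk2a promoter, by immunoprecipitation with an antibody to the tag, and so marks binding of the transgenic protein in the excitatory and spiny neurons where that promoter is active. The tables used hold no circRNA of Elavl4 itself, so the knockout was not checked on these arrays. In bulk tissue, fewer cells of a type and less RNA per cell cannot be told apart.

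The share of circRNA probes well above background was 84.0% to 96.7% per array, with 0 saturated. Levels are given as log2 of the background-corrected intensity minus the array's 75th percentile, an intensity of 180 to 273 for HuD KO and 142 to 164 for WT. All WT arrays came from 1 scan and the HuD KO arrays from 2 others, with HuD KO replicate 3 scanned apart, so scan and genotype cannot be told apart. The level of the 14 circRNA control probes on the array also moved with genotype, between 4.26 and 4.72 in HuD KO and between 3.70 and 3.82 in WT. Of the host genes known to mark cell types, 3 of 15 striatal neuron hosts had circRNAs in the tables used (5 circRNAs, 2 called higher and 2 lower), 1 circRNA each came from an astrocyte and an oligodendrocyte host (log2 change 0.70 and -1.46), 2 from an endothelial host (-2.47 and -2.04) and 0 from microglial hosts. Their part in the results was not tested. Levels of different circRNAs cannot be compared with each other, since each has its own probe.

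The junction sequences that carry the comparisons below are shown first, as deposited, with positions on the mouse chromosomes as the files give them. The 5 circRNAs of Cdk13, which encodes a kinase of the RNA polymerase II tail, are the most from any host, and 4 of them are listed as higher while the intronic one is listed as lower. They span chr13:17750256-17772957, chr13:17763103-17772957, chr13:17750256-17766606, chr13:17738916-17765093 and, for the intronic circle, chr13:17800793-17801457, all on the minus strand. Capitals mark the stretch that a circle shares with another that uses the same end, which is 32 bases between the first and the second and 25 bases between the first and the third (marked in the third).
Cdk13 mmu_circRNA_005864: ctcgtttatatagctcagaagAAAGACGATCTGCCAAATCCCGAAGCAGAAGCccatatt
Cdk13 mmu_circRNA_016768: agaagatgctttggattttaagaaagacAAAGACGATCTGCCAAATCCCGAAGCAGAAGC
Cdk13 mmu_circRNA_26114: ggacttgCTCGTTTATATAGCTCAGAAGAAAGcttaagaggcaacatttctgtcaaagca
Cdk13 mmu_circRNA_26111: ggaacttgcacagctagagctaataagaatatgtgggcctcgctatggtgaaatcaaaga
Cdk13 mmu_circRNA_26117: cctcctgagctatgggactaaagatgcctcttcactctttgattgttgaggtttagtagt

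The 3 circRNAs of Ppp1cb, the beta catalytic subunit of protein phosphatase 1, were all bound by HuD and were higher in HuD KO under every scaling tried. They span chr5:32478065-32487705, chr5:32478065-32491189 and chr5:32480689-32486032 on the plus strand. The first and second begin at the same upstream end, and capitals mark the 30 bases that they share, while in the third capitals mark the pentamer ATTTA.
Ppp1cb mmu_circRNA_38398: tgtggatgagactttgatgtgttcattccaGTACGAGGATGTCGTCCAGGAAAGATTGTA
Ppp1cb mmu_circRNA_018676: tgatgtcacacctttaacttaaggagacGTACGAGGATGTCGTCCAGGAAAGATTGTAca
Ppp1cb mmu_circRNA_38400: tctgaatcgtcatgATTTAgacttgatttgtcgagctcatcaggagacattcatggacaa

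The 3 circRNAs of Camk2d, a subunit of calcium/calmodulin-dependent kinase II, changed in both directions, and 2 of them were bound by HuD. In the order shown they span chr3:126810638-126816210, chr3:126796837-126798280 and chr3:126555443-126684719 on the plus strand. The last, a sense-overlapping circle, reaches beyond the Camk2d gene as annotated in GRCm38.
Camk2d mmu_circRNA_36124: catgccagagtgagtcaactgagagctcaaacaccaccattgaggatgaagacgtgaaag
Camk2d mmu_circRNA_36123: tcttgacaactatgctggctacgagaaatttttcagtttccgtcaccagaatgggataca
Camk2d mmu_circRNA_36122: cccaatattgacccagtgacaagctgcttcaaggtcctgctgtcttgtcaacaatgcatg

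Of the 41 HuD-bound circRNAs, 5 were lower in HuD KO, 1 of them the exonic circle of Camk2d. The junctions of the other 4 are shown with those of Pde7b and Adcy5, which encode enzymes of cyclic AMP turnover that striatal neurons make in quantity. They lie at chr2:39204832-39206717, chr17:86619891-86630207, chr11:109662948-109665986, chr2:5354668-5362127, chr10:20418731-20443369 and chr16:35267179-35283609.
Ppp6c mmu_circRNA_33430: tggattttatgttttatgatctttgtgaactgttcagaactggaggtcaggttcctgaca
Prkce mmu_circRNA_31099: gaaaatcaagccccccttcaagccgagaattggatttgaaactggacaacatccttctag
Prkar1a mmu_circRNA_24406: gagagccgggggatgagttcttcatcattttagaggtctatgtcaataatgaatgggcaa
Camk1d mmu_circRNA_32884: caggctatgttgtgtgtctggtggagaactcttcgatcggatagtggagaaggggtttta
Pde7b mmu_circRNA_21737: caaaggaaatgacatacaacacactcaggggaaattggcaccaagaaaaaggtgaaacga
Adcy5 mmu_circRNA_29619: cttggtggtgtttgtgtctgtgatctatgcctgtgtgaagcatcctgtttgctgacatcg

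More of the HuD-bound signalling circRNAs were higher than lower after loss of HuD. Of the 41, 22 were higher, 5 were lower and 14 did not pass the test (limma, Benjamini-Hochberg adjusted p under 0.05 over 13445 probes). Among all probes tested, 26.2% were called higher and 37.2% lower, or 63.4% in all. The median log2 change of the 41 was 0.66, with a range from -1.62 to 2.07, beside -0.11 over all probes tested. All 3 HuD KO arrays lay above all 3 WT arrays for 24 of the 41 and below them for 5, and 12 overlapped, where 29.7% of all probes lay above and 39.9% below, or 69.5% in all. The 617 other HuD-bound circRNAs of the list used, of which 616 were tested, had 258 higher and 87 lower calls and a median change of 0.35, so that higher calls outnumbered lower ones there too. HuD-bound circRNAs were also brighter than most probes, with a median level of 0.37 for the 41 and 0.36 for the others, against -1.30 over all probes. The part of brightness in these counts was not tested. Without HuD KO replicate 3, the array scanned apart, 23 of the 41 were higher and 6 lower. With the scan as a random block, 18 were higher and 3 lower. Neither fit can remove a scan difference between the genotypes, since no scan held arrays of both.

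**Figure D1:**
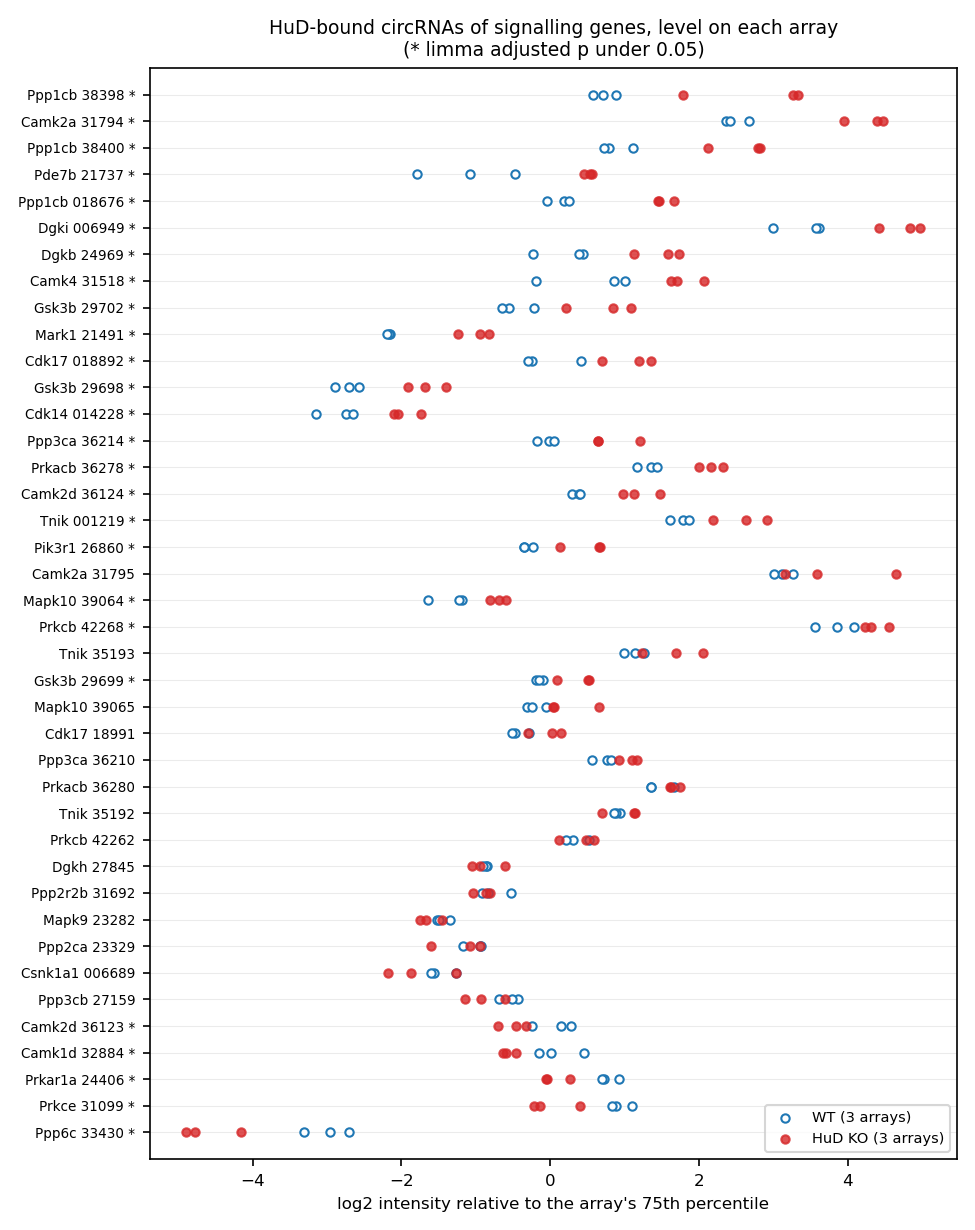
Level of 40 of the 41 HuD-bound circRNAs on each array, as log2 intensity relative to the array's 75th percentile (x axis), ordered by the change between groups, with filled points for the 3 HuD KO arrays and open points for the 3 WT arrays. The HuD KO points lie to the right of all WT points for 23 circRNAs and to the left for 5, and rows marked with a star passed limma's test.

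The direction of the HuD-bound circRNAs depended on how the arrays were scaled. With scaling on the array's own circRNA control probes, 4 of the 41 were higher and 14 lower, and their median change was -0.13. The median over all probes was then -0.89, with 4.55% called higher and 63.1% lower. With no scaling, 29 were higher and 1 was lower, with a median of 1.17 beside 0.41 over all probes, of which 39.8% were called higher and 19% lower. Every scaling of the 6 tried except quantile normalization shifts all probes of an array alike, so the distance between these medians is the same under each of them. With quantile normalization the median of the 41 was 0.49 beside 0.11 over all probes. The circRNAs called in one direction under all 6 were those of Ppp1cb (3 circRNAs) and mmu_circRNA_31794 of Camk2a, which were higher, and mmu_circRNA_33430 of Ppp6c, which was lower. Every other direction given for a HuD-bound circRNA below is relative to the 75th percentile.

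**Figure D2:**
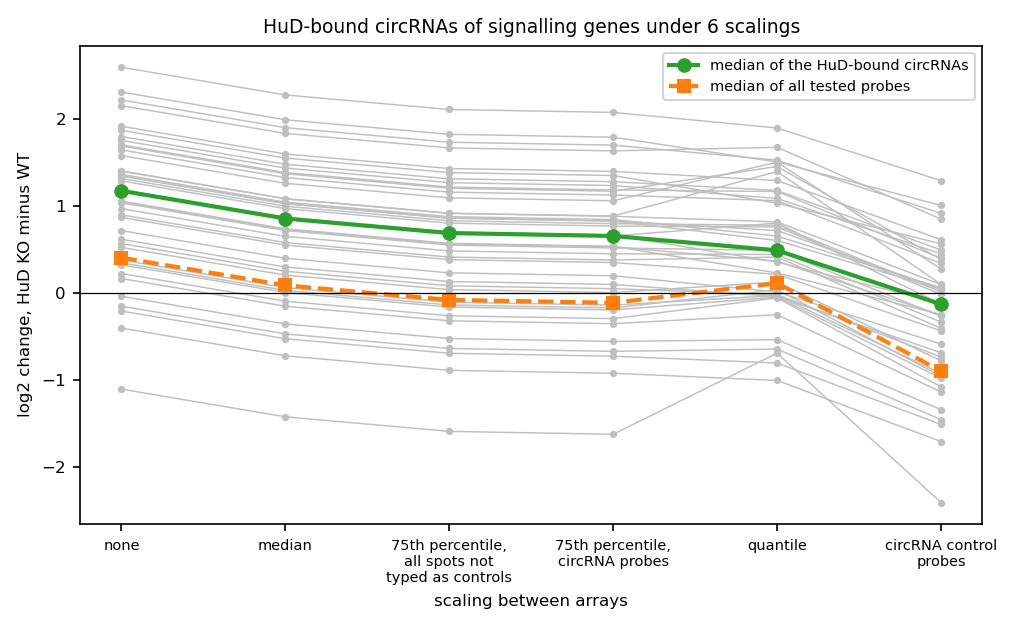
Log2 change between HuD KO and WT (y axis) of each of the 41 HuD-bound circRNAs (grey lines) under 6 scalings between arrays (x axis), with their median (solid line) and the median of all tested probes (dashed line). Both medians fall from no scaling (1.17 and 0.41) to scaling on the control probes (-0.13 and -0.89) by the same amount, and they lie closest together with quantile normalization (0.49 and 0.11).

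The circRNAs from the deposited tables were chosen by the same contrast, so their changes are a description and no test is given for them. Of the 108, 79 (73.1%) were listed as higher, while all listed circRNAs were 1140 higher and 1348 lower. The median change was 1.34 for those listed as higher, from 1.01 to 2.75, and -1.79 for those listed as lower, from -3.12 to -1.02 apart from 1 circRNA of Rps6ka6, which was not well above background in HuD KO and has only a bound. Counts of calls per group of host genes, given next, include these circRNAs and were mostly fixed by that choice. Among the bound circRNAs alone, 2 of 4 were higher and 1 lower in cyclic nucleotide signalling, and 4 of 9 higher and 2 lower among calcium-dependent kinases and calcineurin. In lipid signalling 4 of 7 were higher and 1 lower, among other phosphatases 3 of 6 and 1, and in the MAP kinase cascade 3 of 7 and 0. Among cyclin-dependent kinases 2 of 3 were higher and 0 lower, and among the other serine/threonine kinases 4 of 5 and 0. Just inside the listing threshold, a fold change of 2, lay mmu_circRNA_38057 of Cdk14 (1.01), mmu_circRNA_34943 of Stk4 (1.02) and mmu_circRNA_37596 of Stk40 (-1.02). Just outside it lay mmu_circRNA_014228 of Cdk14 (0.88) and mmu_circRNA_31099 of Prkce (-0.92), whereas mmu_circRNA_33430 of Ppp6c (-1.62) is not listed although its change here is over 2-fold. With quantile normalization the change of that Ppp6c circle was -0.69, under 2-fold. All 79 also had a positive change with the control probes and with no scaling, but with the control probes 37 were called higher. Of the 29 listed as lower, 22 were called lower with no scaling and 29 under each of the other 5.

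**Figure D3:**
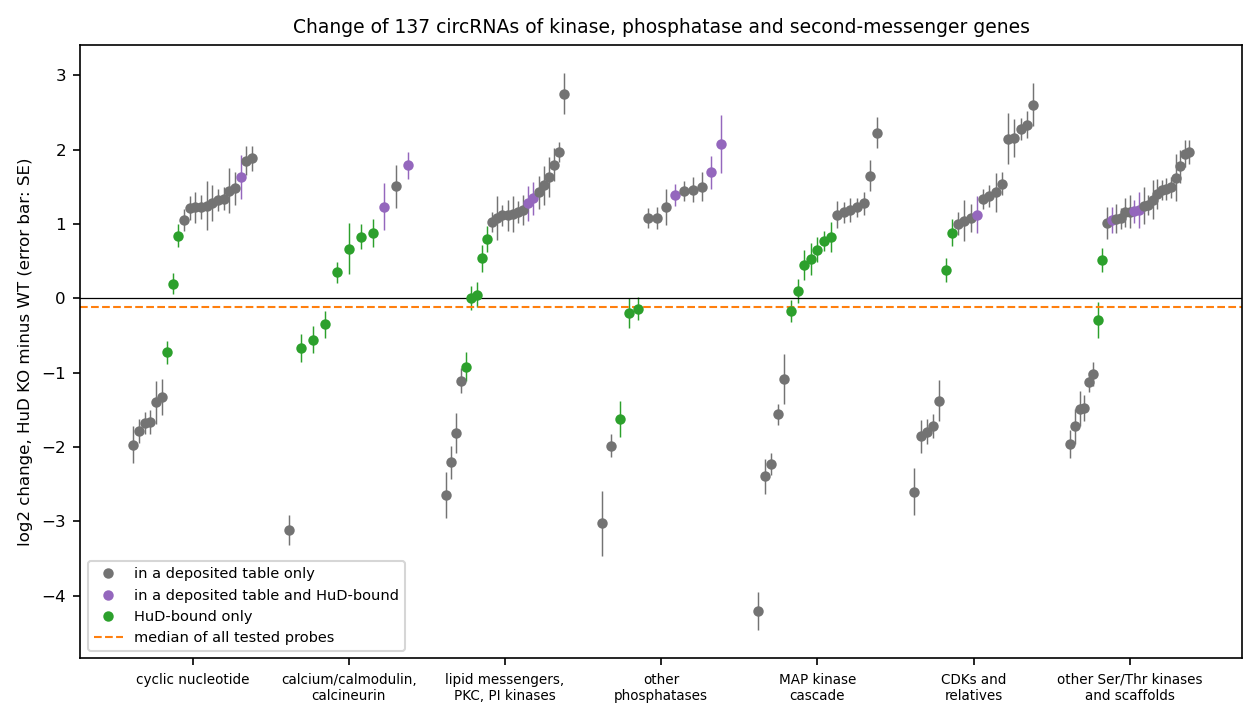
Log2 change between HuD KO and WT with its standard error (y axis) of the 137 circRNAs in 7 groups of host genes (x axis), ordered by change within a group. Grey points stand in a deposited table only, purple points also on the HuD-bound list and green points on that list only; the dashed line is the median of all tested probes (-0.11), and the gap between about -1 and 1 in the grey points is the listing threshold. The lowest point of the MAP kinase cascade was not well above background in HuD KO, so its distance from 0 is no exact change.

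Among circRNAs of cyclic nucleotide signalling, 14 of 22 were called higher and 7 lower. The 4 HuD-bound ones came from a phosphodiesterase and from subunits of protein kinase A. Pde7b encodes a phosphodiesterase specific for cyclic AMP. Its circRNA, mmu_circRNA_21737, was at 0.56, 0.54 and 0.46 on the HuD KO arrays and at -0.47, -1.08 and -1.79 on the WT arrays. The HuD KO values were close together and above the scattered WT values, and the change was 1.63 ± 0.30 (SE, n = 3 per group; limma adjusted p = 0.0022). Prkacb, a catalytic subunit of protein kinase A, gave 2 bound circRNAs. For mmu_circRNA_36278, levels of 2.32, 2.16 and 1.99 in HuD KO lay above 1.17, 1.35 and 1.43 in WT, a change of 0.84 ± 0.15 (limma adjusted p = 0.0019). The second, mmu_circRNA_36280, had levels of 1.61, 1.62 and 1.74 and 1.36, 1.36 and 1.66, which overlapped, and its change of 0.20 ± 0.15 did not pass (limma adjusted p = 0.26). The regulatory subunit Prkar1a, which holds the kinase inactive until cyclic AMP binds, went the other way. Its mmu_circRNA_24406 was at -0.04, -0.05 and 0.26 in HuD KO and at 0.72, 0.69 and 0.93 in WT, with no overlap, and fell (change -0.72 ± 0.15, limma adjusted p = 0.0042).

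The listed circRNAs of this group held cyclases, anchors and further phosphodiesterases. Adcy5 encodes the main adenylyl cyclase of the striatum, and mmu_circRNA_29619 was at 2.90, 2.54 and 2.84 in HuD KO against 4.43, 4.50 and 4.73 in WT, 3.46-fold lower. Adcy2 encodes another cyclase, with 1 circRNA in each table. Its mmu_circRNA_018195 was at -0.45, -0.70 and -0.81 in HuD KO and -1.88, -2.04 and -1.71 in WT, whereas mmu_circRNA_26526 was at 1.75, 1.55 and 1.80 in HuD KO and at 3.36 and 3.36 on the 2 WT arrays with a value. Cyclic GMP is degraded by Pde5a, all 3 of whose circRNAs were listed as higher. The 2 that share a downstream end, mmu_circRNA_007474 and mmu_circRNA_013908, had changes of 1.88 ± 0.17 and 1.85 ± 0.19, with HuD KO levels from 0.91 to 1.74 and WT levels from -0.82 to -0.44. By contrast, the circRNAs of Pde3a and Pde4b, both of which act on cyclic AMP, were listed as lower. That of Pde3a, mmu_circRNA_41017, was at -0.70, -0.98 and 0.03 in HuD KO and 1.32, 1.50 and 1.43 in WT. That of Pde4b, mmu_circRNA_37262, was at -0.98, -1.25 and -0.08 and 0.60, 0.76 and 0.52, and in both the third HuD KO array lay closest to WT.

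Among circRNAs of calcium-dependent kinases and calcineurin, 5 of 11 were called higher and 3 lower, and 9 of the 11 were HuD-bound. Camk2a encodes the most abundant kinase subunit of excitatory synapses. Its exonic circRNA mmu_circRNA_31794 was at 4.39, 3.96 and 4.48 in HuD KO and 2.68, 2.36 and 2.42 in WT, a 3.45-fold rise (log2 change 1.79 ± 0.18, limma adjusted p = 1.4e-04). The other, mmu_circRNA_31795, was at 3.59, 3.16 and 4.65 against 3.26, 3.12 and 3.02, where only the third HuD KO array stood far above WT, and its change of 0.67 ± 0.34 did not pass (limma adjusted p = 0.12) unless HuD KO replicate 2 was left out (adjusted p = 0.031). In Camk2d the bound circles moved apart. Levels of mmu_circRNA_36124 were 1.12, 0.97 and 1.48 in HuD KO and 0.29, 0.39 and 0.41 in WT (change 0.83 ± 0.17, limma adjusted p = 0.0032). Levels of mmu_circRNA_36123 were -0.46, -0.32 and -0.70 and 0.28, -0.24 and 0.15, a fall (change -0.55 ± 0.18, limma adjusted p = 0.03) in which the groups nearly touched. That fall lost its call when either HuD KO replicate 1 or 3, or WT replicate 1 or 3, was left out (adjusted p from 0.055 to 0.11). The third circle, mmu_circRNA_36122, not HuD-bound, showed the widest difference of the group, at -4.10, -4.16 and -3.63 in HuD KO against -0.81, -0.58 and -1.14 in WT.

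Camk4 encodes a nuclear kinase that acts on CREB, and both of its circRNAs were listed as higher. The bound one, mmu_circRNA_31518, was at 2.06, 1.62 and 1.70 in HuD KO and 1.01, 0.86 and -0.19 in WT, where the third WT array was low (change 1.23 ± 0.31, limma adjusted p = 0.0096). The same WT array was low for mmu_circRNA_31516, with 0.38, 0.23 and 0.20 against -0.86, -0.89 and -1.96. Camk1d encodes a kinase of the same family, and its mmu_circRNA_32884 fell from 0.01, -0.14 and 0.45 in WT to -0.46, -0.60 and -0.64 in HuD KO (change -0.67 ± 0.18, limma adjusted p = 0.013). Of the calcineurin catalytic subunits, Ppp3ca gave 2 bound circRNAs. Levels of mmu_circRNA_36214 were 0.64, 0.64 and 1.21 in HuD KO and -0.02, 0.04 and -0.18 in WT, with the third HuD KO array highest (change 0.88 ± 0.19, limma adjusted p = 0.0044). For mmu_circRNA_36210 the groups did not overlap either, at 1.16, 1.1 and 0.93 and 0.76, 0.82 and 0.56, but its change of 0.35 ± 0.14 did not pass (limma adjusted p = 0.064). That of Ppp3cb, mmu_circRNA_27159, had a change of -0.35 ± 0.18, also without passing (limma adjusted p = 0.12). Without HuD KO replicate 3, both passed, with adjusted p of 0.029 and 0.019.

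Lipid signalling gave 17 higher and 5 lower calls among 24 circRNAs. Diacylglycerol kinases end the diacylglycerol signal by phosphorylating it, and 3 of the 7 bound circRNAs of this group came from them. The circle of Dgki, mmu_circRNA_006949, was at 4.98, 4.83 and 4.43 in HuD KO and 3.61, 3.58 and 3.00 in WT (change 1.35 ± 0.22, limma adjusted p = 0.0012). That of Dgkb, mmu_circRNA_24969, was at 1.58, 1.73 and 1.12 and 0.45, 0.39 and -0.23 (change 1.28 ± 0.24, limma adjusted p = 0.0022), so that both rose without overlap. Dgkh gave mmu_circRNA_27845, where HuD KO levels of -0.94, -1.06 and -0.61 lay on both sides of WT levels of -0.85, -0.87 and -0.90 (change 0.01 ± 0.16, limma adjusted p = 0.98). Protein kinase C answers to diacylglycerol, and its beta isoform Prkcb gave 3 circRNAs. Among the bound, mmu_circRNA_42268 was at 4.24, 4.31 and 4.56 in HuD KO and 4.08, 3.86 and 3.56 in WT (change 0.54 ± 0.18, limma adjusted p = 0.03), a call lost without any 1 of 4 arrays (HuD KO replicate 2 or 3, WT replicate 2 or 3; adjusted p from 0.061 to 0.083). In mmu_circRNA_42262 the groups overlapped, at 0.48, 0.12 and 0.59 against 0.52, 0.31 and 0.21 (change 0.05 ± 0.17, limma adjusted p = 0.81). The listed one, mmu_circRNA_42264, was at 3.89, 3.65 and 2.86 against 2.04, 1.97 and 1.83. Prkce, the epsilon isoform, had 1 bound circRNA, mmu_circRNA_31099, which was at -0.14, -0.22 and 0.40 in HuD KO and 1.09, 0.88 and 0.82 in WT and fell (change -0.92 ± 0.20, limma adjusted p = 0.0042).

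Phosphoinositide kinases were represented by catalytic and regulatory subunits. Pik3r1, the main regulatory subunit of the class I enzymes, gave the bound mmu_circRNA_26860, at 0.66, 0.66 and 0.13 in HuD KO and -0.35, -0.24 and -0.35 in WT (change 0.80 ± 0.18, limma adjusted p = 0.0055). The largest rise of all 137 was that of mmu_circRNA_35219 from Pik3ca, the alpha catalytic subunit, with 0.99, 0.32 and -0.12 in HuD KO and -2.48, -2.48 and -2.11 in WT, or 6.73-fold. A phospholipase C-like protein that lacks enzyme activity, Plcl2, gave 3 listed circRNAs. The one with the largest change, mmu_circRNA_19191, was at 2.66, 2.49 and 2.40 against 0.53, 0.64 and 0.49. Plcxd2, a protein with a phospholipase C-like domain, gave mmu_circRNA_29775, at -2.73, -2.48 and -1.97 in HuD KO and -0.41, 0.03 and -0.17 in WT. Protein kinase D1, encoded by Prkd1, which acts downstream of diacylglycerol and protein kinase C, had 1 circRNA in each table. Its sense-overlapping mmu_circRNA_25034 was at 1.99, 1.83 and 3.08 in HuD KO and 4.90, 4.94 and 5.0 in WT, with HuD KO replicate 3 closest to WT, and its exonic mmu_circRNA_25031 was at -1.90, -1.66 and -1.69 and -2.81, -2.79 and -3.00. Pik3r3, another regulatory subunit, was also in both tables. Levels were -2.77, -3.01 and -3.35 in HuD KO and -4.58, -4.31 and -3.48 in WT for mmu_circRNA_37459, which was well above background on 2 of 3 WT arrays, and -1.53, -1.64 and -1.15 and -0.37, -0.25 and -0.37 for mmu_circRNA_37466.

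Among circRNAs of protein phosphatases other than calcineurin, 9 of 14 were called higher and 3 lower. All 3 circles of Ppp1cb, whose product removes phosphate from many neuronal proteins, were HuD-bound and listed as higher. Levels of mmu_circRNA_38398 were 3.34, 3.27 and 1.79 in HuD KO and 0.71, 0.57 and 0.88 in WT, a rise of 4.21-fold, the largest among bound circRNAs, in which HuD KO replicate 3 was lowest (limma adjusted p = 0.0023). For mmu_circRNA_38400 they were 2.79, 2.82 and 2.12 and 0.79, 0.72 and 1.11 (change 1.70 ± 0.22, limma adjusted p = 4.2e-04). In mmu_circRNA_018676 they were 1.45, 1.67 and 1.47 and 0.18, -0.04 and 0.25 (change 1.40 ± 0.15, limma adjusted p = 1.6e-04), so no array of one group reached the other in any of them. The largest fall among bound circRNAs was in Ppp6c, the catalytic subunit of protein phosphatase 6. Its mmu_circRNA_33430 was at -4.89, -4.78 and -4.16 in HuD KO and -2.70, -2.95 and -3.32 in WT (change -1.62 ± 0.24, limma adjusted p = 7.9e-04). It was well above background on 2 of 3 HuD KO arrays. The bound circRNAs of 2 subunits of protein phosphatase 2A did not pass, with changes of -0.19 ± 0.20 for the catalytic Ppp2ca (limma adjusted p = 0.42) and -0.14 ± 0.16 for the regulatory Ppp2r2b (limma adjusted p = 0.47). Ppp2r3a, another regulatory subunit, stood in both tables. Its exonic mmu_circRNA_44975 was at -0.20, -0.20 and -0.88 against -1.90, -1.78 and -1.31. The circle on the opposite strand of Ppp2r3a, mmu_circRNA_018555, was at -4.91 and -3.27 on the 2 HuD KO arrays with a value, against -1.14, -0.87 and -1.18 in WT. Ppp1r13l, named for its likeness to a phosphatase 1 regulator and an inhibitor of p53, gave mmu_circRNA_41211, at -3.25, -3.11 and -2.93 in HuD KO against -1.08, -1.01 and -1.25 in WT.

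In the MAP kinase cascade 10 of 19 circRNAs were called higher and 5 lower, and of the 7 bound ones 3 were higher and 0 lower. The JNK kinases, which answer to stress, are encoded by Mapk8, Mapk9 and Mapk10. Mapk10 gave the bound mmu_circRNA_39064, at -0.81, -0.59 and -0.69 in HuD KO and -1.19, -1.64 and -1.23 in WT (change 0.66 ± 0.17, limma adjusted p = 0.0099), and mmu_circRNA_39065, whose change of 0.45 ± 0.20 did not pass although its arrays did not overlap (limma adjusted p = 0.079). Mapk9 gave the bound mmu_circRNA_23282, with a change of -0.17 ± 0.14 that did not pass (limma adjusted p = 0.33). Mapk8 gave the listed mmu_circRNA_27438, at 3.11, 2.76 and 2.38 in HuD KO and 0.36, 0.47 and 0.73 in WT, 4.69-fold higher. Tnik, a kinase of the postsynaptic density and of Wnt signalling, had 3 bound circRNAs. That called higher, mmu_circRNA_001219, was at 2.91, 2.64 and 2.19 in HuD KO and 1.79, 1.61 and 1.87 in WT (change 0.82 ± 0.20, limma adjusted p = 0.0084). The changes of mmu_circRNA_35193 and mmu_circRNA_35192, 0.53 ± 0.22 and 0.10 ± 0.16, did not pass (limma adjusted p = 0.063 and 0.61), though without HuD KO replicate 3 the former did (adjusted p = 0.0062).

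Further listed circRNAs with large changes came from other host genes placed in this group by their symbol. Map3k2 encodes a kinase kinase kinase, and mmu_circRNA_31503 was at 0.91, 0.98 and 0.66 in HuD KO and -0.97, -1.06 and -0.37 in WT. Map3k19, of the same tier, gave mmu_circRNA_20791, at -1.41, -1.32 and -0.61 against 1.19, 1.47 and 1.18. Mapkap1 encodes a subunit of the mTORC2 complex, and its intronic mmu_circRNA_33321 was at -4.20, -4.08 and -4.02 against -2.07, -1.73 and -1.81. The largest difference of all 137, in mmu_circRNA_45702 of the ribosomal S6 kinase gene Rps6ka6, is a bound, since it was not well above background on any HuD KO array. Its measured levels were -6.60, -5.59 and -6.12 in HuD KO and -1.72, -1.83 and -2.12 in WT, and it was at least 10.3-fold lower. This circle was singled out after its values were seen.

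Cyclin-dependent kinases and their relatives gave 14 higher and 5 lower calls among 20 circRNAs, 3 of them HuD-bound. Cdk17 encodes a neuronal kinase of the PCTAIRE family. Its mmu_circRNA_018892 was at 1.19, 1.35 and 0.70 in HuD KO and -0.24, -0.30 and 0.41 in WT (change 1.12 ± 0.25, limma adjusted p = 0.005), while mmu_circRNA_18991 had a change of 0.38 ± 0.16 that did not pass (limma adjusted p = 0.075) unless HuD KO replicate 1 was left out (adjusted p = 0.032). Cdk14, a kinase that acts in Wnt signalling, gave the bound mmu_circRNA_014228, at -2.05, -2.09 and -1.74 against -2.74, -3.14 and -2.65 (change 0.88 ± 0.18, limma adjusted p = 0.0038). The 4 exonic circles of Cdk13 had changes of 2.61 ± 0.29, 2.16 ± 0.26, 2.15 ± 0.34 and 1.34 ± 0.13, in the order in which their junctions are shown. The first was at 0.52, 0.85 and -0.34 in HuD KO and -2.35, -2.32 and -2.12 in WT, and the third at 2.09, 2.14 and 0.80 and -0.36, -0.56 and -0.50, with HuD KO replicate 3 the lowest of its group in both. The intronic mmu_circRNA_26117 was at -4.74, -4.17 and -3.34 against -1.36, -1.57 and -1.53, and was well above background on 2 of 3 HuD KO arrays. Cdk12, a relative of Cdk13, gave mmu_circRNA_24164, at -2.73, -2.24 and -3.13 in HuD KO and -0.94, -0.73 and -0.87 in WT. The 2 circRNAs of Cdk5rap1 lay in both tables, with -1.78, -1.79 and -2.19 against -2.84, -2.88 and -3.29 for mmu_circRNA_34800 and -2.38, -2.50 and -2.83 against -0.85, -0.60 and -0.88 for mmu_circRNA_34799.

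Of the 27 circRNAs of other serine/threonine kinases and scaffolds, 20 were called higher and 6 lower. Gsk3b encodes glycogen synthase kinase 3 beta, a kinase inhibited by Wnt and insulin signals, and all 3 of its circRNAs were bound and higher. Levels of mmu_circRNA_29702 were 0.84, 1.08 and 0.21 in HuD KO and -0.21, -0.55 and -0.65 in WT (change 1.18 ± 0.24, limma adjusted p = 0.0036). Those of mmu_circRNA_29698 were -1.68, -1.40 and -1.91 and -2.70, -2.58 and -2.89 (change 1.06 ± 0.18, limma adjusted p = 0.0013). Those of mmu_circRNA_29699 were 0.52, 0.51 and 0.09 and -0.09, -0.19 and -0.15 (change 0.52 ± 0.16, limma adjusted p = 0.023), a call lost without any 1 of 5 arrays, that is, without any except HuD KO replicate 3 (adjusted p from 0.051 to 0.082). Mark1, a kinase of microtubule-associated proteins, gave mmu_circRNA_21491, at -0.94, -0.82 and -1.24 against -2.16, -2.17 and -2.19 (change 1.17 ± 0.15, limma adjusted p = 4.1e-04). The bound circRNA of casein kinase gene Csnk1a1, mmu_circRNA_006689, did not pass, with a change of -0.29 ± 0.24 (limma adjusted p = 0.31), but did without HuD KO replicate 3 (adjusted p = 0.025). Among listed circRNAs, mmu_circRNA_44496 of casein kinase gene Csnk1g1 was at -0.99, -0.93 and -1.31 in HuD KO and -2.93, -3.00 and -3.21 in WT. That of Stk32c with the largest change, mmu_circRNA_42458, was at 4.98, 4.86 and 5.02 and 3.12, 3.23 and 2.65. Stk33, a further serine/threonine kinase gene, gave mmu_circRNA_42062, at -2.96, -2.58 and -2.32 against -0.60, -0.59 and -0.80. Stk4, the Hippo kinase MST1, had circles in both tables. Its mmu_circRNA_34939 and mmu_circRNA_34943 were listed as higher, at -2.19, -2.0 and -2.32 against -3.67, -3.29 and -3.03 and at -0.58, -0.65 and -0.80 against -1.96, -1.90 and -1.23, and mmu_circRNA_34942 as lower, at -0.60, -0.67 and -0.50 against 0.62, 1.28 and 1.51.

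Circles of 1 host gene did not always move together. Of the 86 hosts, 36 had several circRNAs in the set. In 20 of these all circRNAs were called higher and in 0 all were called lower. Over all probes tested, 26.2% were called higher and 37.2% lower. Except in Cdk14 and Gsk3b, every circRNA of the 20 hosts stood in the table of higher circRNAs, so the choice fixed their direction. In 9 of the 36 hosts calls went in both directions, among them Adcy2, Camk2d, Cdk13, Cdk5rap1, Pik3r3, Ppp2r3a, Prkd1 and Stk4. In each of these hosts except Camk2d, the choice by the deposited tables fixed both directions. The lower circle was exonic in Adcy2, Cdk5rap1, Pik3r3 and Stk4, sense-overlapping in Prkd1, intronic in Cdk13 and antisense in Ppp2r3a. Of the lower circles of Camk2d, mmu_circRNA_36123 was exonic and mmu_circRNA_36122 sense-overlapping. Over all 137, 120 were exonic, 14 sense-overlapping, 2 intronic and 1 antisense. Exonic circles made up 92.4% of those listed as higher and 69.0% of those listed as lower, beside 83.3% and 66.0% over all listed circRNAs.

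**Figure D4:**
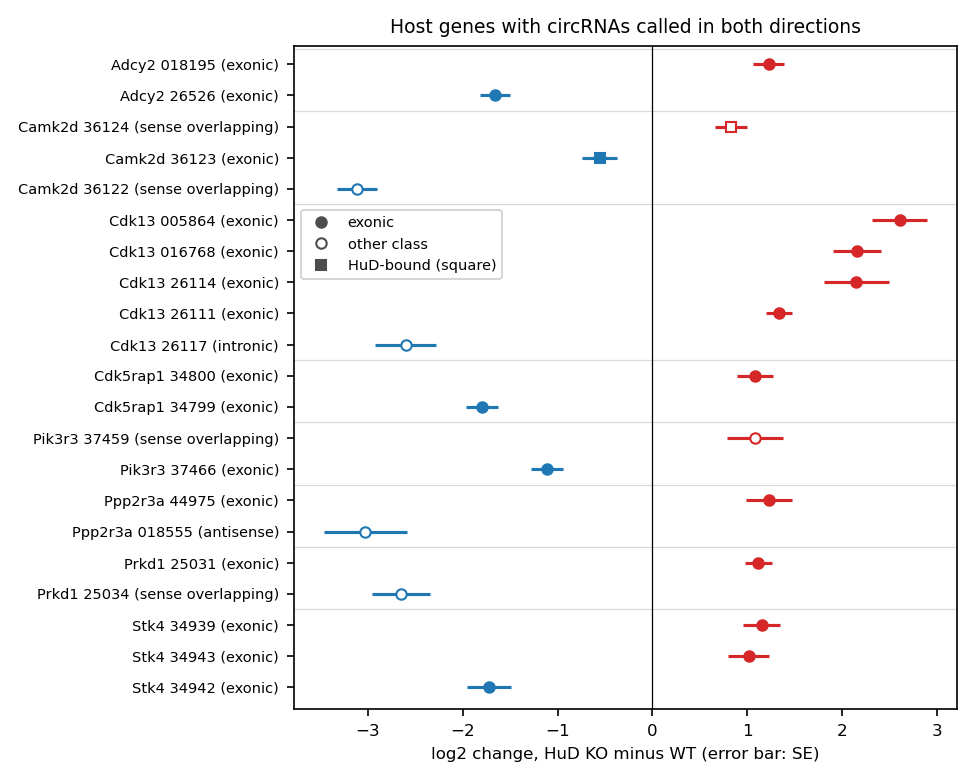
Log2 change between HuD KO and WT with its standard error (x axis) of the circRNAs of 8 host genes with calls in both directions, 1 row per circRNA. Filled points are exonic circles, open points other classes and squares HuD-bound ones; in every host shown at least 1 circle lies on each side of 0, from -3.12 in Camk2d to 2.61 in Cdk13.

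The difference between 2 circles of a host within an array is untouched by any scaling that shifts a whole array, but not by quantile normalization. It was computed for the 16 pairs of bound circRNAs from the 10 hosts with more than 1. With 3 arrays against 3, a two-sided exact permutation test cannot give a p below 0.1. In 10 pairs the 3 HuD KO differences did not overlap the 3 WT differences, and in 6 they did. That is 62.5% without overlap, beside 50.3% of the 183 such pairs of HuD-bound circRNAs from 117 other hosts. Pairs of a host are not independent. In Gsk3b, Ppp1cb and Tnik, with 3 bound circles each, the difference of 1 pair follows from the other 2. The circle with the larger change is named first, which fixes the sign of each value. Between mmu_circRNA_36124 and mmu_circRNA_36123 of Camk2d the difference was larger in HuD KO by 1.38 ± 0.32 (SE), without overlap (exact permutation p = 0.1). Between the circles mmu_circRNA_31794 and mmu_circRNA_31795 of Camk2a it was larger by 1.12 ± 0.33, again without overlap (exact permutation p = 0.1). The HuD KO differences were uneven there, at 0.80, 0.79 and -0.17, against -0.59, -0.76 and -0.59 in WT. For mmu_circRNA_36278 and mmu_circRNA_36280 of Prkacb it was larger by 0.64 ± 0.15 (exact permutation p = 0.1). The remaining pairs without overlap included those of Tnik (0.73 ± 0.13, 0.43 ± 0.17 and 0.29 ± 0.10), Ppp3ca (0.53 ± 0.26) and Prkcb (0.49 ± 0.14). In Gsk3b they were those of mmu_circRNA_29699 with mmu_circRNA_29702 (0.67 ± 0.17) and with mmu_circRNA_29698 (0.54 ± 0.14). The 3 pairs of Ppp1cb overlapped, with changes of the difference from 0.30 to 0.68 (exact permutation p from 0.3 to 0.4). With quantile normalization 1 of the 16 pairs changed sign, mmu_circRNA_29702 and mmu_circRNA_29698 of Gsk3b (0.12 to -0.34), and the value for mmu_circRNA_29698 and mmu_circRNA_29699 of that gene went from 0.54 to 1.01. These pairs of Gsk3b were singled out after their values were seen. After adjustment over 16 pairs no p was below 0.1, an outcome fixed by the number of arrays.

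Circles that share a splice site were examined next. Within hosts, 12 pairs of circRNAs from 9 hosts had an end within 3 bases of each other, and in 12 of 12 both were called higher. Each of these circRNAs stood in the table of higher circRNAs, so their common direction was fixed by the choice. The longest unbroken junction stretch that a pair shared was between 11 and 47 bases of 60, so the bases shared in all can be more. Cross-hybridization between such probes was not tested. The pair of Plcl2, mmu_circRNA_016423 and mmu_circRNA_19191, differed by 1 base at each end, with changes of 1.80 ± 0.22 and 1.97 ± 0.14. Its longest unbroken shared stretch was 29 bases. The bases after that stretch also matched, beyond a short insertion in mmu_circRNA_19191, so the 2 junction sequences are nearly the same. This pair was singled out after its values were seen.

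HuD binds AU-rich RNA, and the junctions were searched for the core AU-rich pentamer. The letters ATTTA occurred in 6 of 137 junctions (4.38%), as in 4.16% of the 3056 junctions with a named host, and the reverse complement occurred in 3.65% and 3.50%. Among the 41 bound circRNAs 4 junctions (9.76%) held ATTTA, against 4.54% of the 617 other bound ones. The reverse complement occurred in 4.88% of the 41 and 3.40% of the 617. The 4 with ATTTA, all called higher as were 22 of the 41, were the Ppp1cb circle shown earlier and the circles of Prkacb, Mapk10 and Cdk14. A link between ATTTA and direction was not tested. The junctions of the Prkacb, Mapk10 and Cdk14 circles follow with ATTTA in capitals. They span chr3:146737933-146748047, chr5:102963466-103058392 and chr5:5092957-5103854 on the minus strand.
Prkacb mmu_circRNA_36278: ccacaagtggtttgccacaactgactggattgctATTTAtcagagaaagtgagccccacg
Mapk10 mmu_circRNA_39064: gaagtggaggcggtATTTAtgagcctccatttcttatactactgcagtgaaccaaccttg
Cdk14 mmu_circRNA_014228: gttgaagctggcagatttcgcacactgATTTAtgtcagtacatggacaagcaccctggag
The letters TTTTT occurred in 2.92% of the 137 junctions and in 5.14% of the 3056. Among bound circRNAs they occurred in 2.44% of the 41 and 3.57% of the 617. The letters GTTTG occurred in 5.84% of the 137 and 6.28% of the 3056, and in 9.76% of the 41 and 8.75% of the 617. For TATTTA, which contains ATTTA, the shares were 4.88% of the 41 and 1.30% of the 617. The reverse complement of TTTTT occurred in 8.03% of the 137 and 9.36% of the 3056, and in 9.76% of the 41 and 8.43% of the 617. That of GTTTG occurred in 11.7% of the 137 and 6.48% of the 3056, and in 4.88% of the 41 and 7.13% of the 617. That of TATTTA occurred in 0% of the 41 and 0.81% of the 617. Differences between these shares were not tested. The median share of A and T was 56.7% in the 137 and 55.0% in the 3056. Only 60 bases around the junction are covered, and the rest of each circle was not searched. The circles spanned a median of 16.2 kb of the genome, between 0.064 and 130.827 kb.

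Other kinase and phosphatase genes whose symbols fall outside these families were counted beside them. Of 137 such genes, 53 had circRNAs in the tables used, 89 in all. Of their 24 HuD-bound circRNAs, 9 were called higher, 1 lower and 14 neither, with a median change of 0.25, beside 22, 5 and 14 and a median of 0.66 in the 41. Of the 24, 37.5% were higher and 4.17% lower. Among all tested HuD-bound circRNAs outside the 41, 41.9% were higher and 14.1% lower, with a median change of 0.35. Over all probes tested, 26.2% were higher and 37.2% lower, with a median of -0.11. Differences between these sets were not tested. Among their listed circRNAs 40 were higher and 27 lower.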

How the data were processed

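Striatal RNA of 3 HuD KO and 3 WT mice was measured, with 1 array per mouse. P-values measure the spread between these arrays. RNase R treatment of the RNA, amplification with random primers and Cy3 labelling are given per the labels. Spots were quantified by the scanner software, Agilent Feature Extraction 11.0.1.1. That software had corrected the deposited intensity for background within each array, without normalization between arrays. The authors also deposited the uncorrected median intensity, the background and spot flags, used here to drop outlier spots (3 to 95 per array), and, of the 2 tables of higher and lower circRNAs, the positions, classes, host genes and junction sequences; their fold change, p-value, FDR and normalized columns were not used. Sample columns of other series numbered 0. The submitters' processing notes name limma; the genome build of the tables is not given in the sources used here, and 120 of 120 exonic circRNAs lay inside their host gene in GRCm38.

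Values were log2 intensity minus the array's 75th percentile over circRNA probes. Of 14236 probes, 13458 passed the background flag on all 3 arrays of a group. The test, on the 13445 with unflagged values in both groups, was limma's lmFit and eBayes (limma 3.58.1, R 4.3.3) with no covariate and Benjamini-Hochberg adjustment over all. All 137 circRNAs passed the filter. The fit was tested on simulated data. Normexp (offset 50) used the median spot intensity, since the files hold no mean. An at-least fold sets the dim group at the lowest signal well above background on each array. The study's methods name a Student test, run as an alternative beside 19 others. Replicate numbers did not pair the samples (correlations of deviations from -0.08 to -0.01).

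The 137 circRNAs and the gene lists were chosen with earlier results of these data known. Named were every HuD-bound circRNA, the 2 largest rises and 2 largest falls per group of host genes among listed circRNAs well above background on all 6 arrays, all circRNAs of hosts in both tables or with at least 4, those of striatal signalling genes (such as Pde4b, Adcy5, Prkcb, Camk2a and Gsk3b), and those at the listing threshold; others are marked in the text. The circRNAs of 2 host genes are in the counts but are not reported here by name. HuD-bound membership came from the study's list, without its values; the copy used had 658 circRNAs. The study gives a larger number, and any others were not analysed here.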

Additional observations from a re-analysis of the deposited data

How the results depend on the processing

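The 20 alternatives changed the scaling, background correction, filter, test, blocks, weights or arrays. The 78 named circRNAs include listed ones, which were chosen by the same contrast, so their stability was partly fixed by that choice. Of the 41 HuD-bound circRNAs, 4 were called higher and 1 lower under all 6 scalings, and those 4 were also listed as higher. Of the 78, 64 were called, 33 of them the same way under every alternative that tested them and 48 under every one except scaling on the circRNA control probes. That scaling gave 612 higher and 8480 lower probes, 4 higher and 14 lower HuD-bound circRNAs with a median change of -0.13, and 37 listed circRNAs called higher; it turned the sign of Mapk10 mmu_circRNA_39064 (-0.13) and mmu_circRNA_39065 (-0.33), Tnik mmu_circRNA_35192 (-0.68) and mmu_circRNA_35193 (-0.25), Camk2a mmu_circRNA_31795 (-0.12), Ppp3ca mmu_circRNA_36210 (-0.43), Prkacb mmu_circRNA_36280 (-0.58), Cdk17 mmu_circRNA_18991 (-0.40), Dgkh mmu_circRNA_27845 (-0.78), Prkcb mmu_circRNA_42262 (-0.73) and mmu_circRNA_42268 (-0.25) and Gsk3b mmu_circRNA_29699 (-0.27). No scaling gave 5348 higher and 2552 lower probes, 1 lower HuD-bound circRNA and a median of 1.17, and turned Mapk9 mmu_circRNA_23282 (0.35), Ppp3cb mmu_circRNA_27159 (0.17), Csnk1a1 mmu_circRNA_006689 (0.22), Ppp2ca mmu_circRNA_23329 (0.32) and Ppp2r2b mmu_circRNA_31692 (0.38). Median scaling gave 3 lower HuD-bound circRNAs and a median of 0.86, and turned Mapk9 mmu_circRNA_23282 (0.030), Ppp2ca mmu_circRNA_23329 (0.0066) and Ppp2r2b mmu_circRNA_31692 (0.062). The median was 0.69 with the percentile taken over spots of every type but control, 0.49 with quantile normalization of either intensity, 0.43 with normexp and the 75th percentile, which turned Dgkh mmu_circRNA_27845 (-0.059), and 0.41 with normexp and quantiles. Quantile normalization called 4533 probes higher and 3830 lower and turned Mapk9 mmu_circRNA_23282 (0.039), Tnik mmu_circRNA_35192 (-0.041) and Prkcb mmu_circRNA_42262 (-0.019). On uncorrected intensity it turned these (0.056, -0.078 and -0.025), Prkacb mmu_circRNA_36280 (-0.024) and Csnk1a1 mmu_circRNA_006689 (0.065). With normexp the same 5 turned (0.039, -0.077, -0.023, -0.018 and 0.039). Array weights turned Dgkh mmu_circRNA_27845 (-0.11), Prkcb mmu_circRNA_42262 (-0.090) and Ppp2ca mmu_circRNA_23329 (0.032). The cause of each was not tested. With the replicate number as a block, 21 HuD-bound circRNAs were higher and 4 lower, with 3208 and 4779 over all probes; with the scan as a random block, 3 HuD-bound circRNAs were lower, and over all probes 2471 were higher and 4160 lower.

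Leaving out 1 array gave 20 to 23 higher and 4 to 6 lower HuD-bound circRNAs, a median of 0.55 to 0.73, and 2753 to 3879 higher and 4331 to 5291 lower probes. The changes of Dgkh mmu_circRNA_27845 (-0.13 to 0.10), Prkcb mmu_circRNA_42262 (-0.046 to 0.19) and Ppp2ca mmu_circRNA_23329 (-0.33 to 0.0045) then lay on both sides of 0. With 3 arrays per group, and with scan and genotype aligned, small differences cannot be resolved.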
